A study of Mus musculus with 6 samples.

Results

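The clustered histone genes are the genes of the Hist1, Hist2 and Hist3 clusters of the mouse, which encode the linker histone H1 and the core histones H2A, H2B, H3 and H4. Members were taken as genes with a Hist1h, Hist2h, Hist3h or Hist4h symbol and a row of the array table that named no other gene. The array's gene table mostly gives these genes by their current symbols, so the older symbols were matched through the synonyms of RefSeq. This gave 30 genes, of 70 clustered histone genes in RefSeq and of 30098 genes with a row of their own. There were 5 H1, 11 H2A, 9 H2B, 3 H3 and 2 H4 genes, and RefSeq lists 3 of the 30 as pseudogenes (H2ac14, H2af-ps2 and H2bu1-ps). H4c2 had more than 1 row, and its row with the highest mean over the 6 arrays was used.

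RNA came from cultured lung fibroblasts at passage 2, with 3 arrays of LF ATF4 KO cells (Atf4 deleted, genotype Atf4 Δ/Δ) and 3 arrays of LF ATF4 WT cells (genotype Atf4 WT/WT). In the study's methods, the mice were young adults of both sexes on a C57BL/6 background, the KO mice carried floxed Atf4 with Rosa26::CreER-T2, and the WT mice carried the same CreER-T2 with unfloxed Atf4. Mice of both genotypes received tamoxifen, and the culture medium of both contained 4-hydroxytamoxifen. The Cre acts in all cell types, tissue of several mice was digested together, and the methods do not say whether the 3 cultures of a genotype came from separate digests, so the p-values speak only of variation among the cultures on hand.

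Replication-dependent histone genes have no introns and are transcribed mainly in S phase, when newly copied DNA has to be packed into nucleosomes. Their mRNAs end in a stem-loop in place of a poly(A) tail. Slbp binds this stem-loop, and Npat drives transcription of the clusters. A pair each of H2A, H2B, H3 and H4 makes the core of the nucleosome, and H1 binds the DNA between cores. Labelling was primed with poly(T) together with random oligomers, so mRNA without a poly(A) tail was within reach of the assay. Copies within a type are nearly identical, so signal of 1 copy cannot be fully separated from that of the others. Cultures with fewer cells in S phase and cells with less histone mRNA each cannot be told apart in these bulk samples.

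The promoters of these genes are built from a few short elements, and 4 are shown because they belong to the H1, H2A and H2B genes that the values below turn on, or carry the element typical of their type. Each is the 250 bases before the RefSeq start in GRCm38.p6, written 5′ to 3′ on the gene's strand. Capitals mark the CCAAT box on either strand, the TATA box (TATAAA), the H1 box (AAACACA) and the octamer (ATTTGCAT). H1f2 lies at chr13:23738557-23738806 on the plus strand and has the H1 box and a CCAAT box. H2ac10, at chr13:23533625-23533874 on the plus strand, and H2ac24, at chr13:21833476-21833725 on the minus strand, have only CCAAT boxes among these letters. H2bc3, at chr13:23746484-23746733 on the plus strand, has the octamer and TATAAA as well.
H1f2: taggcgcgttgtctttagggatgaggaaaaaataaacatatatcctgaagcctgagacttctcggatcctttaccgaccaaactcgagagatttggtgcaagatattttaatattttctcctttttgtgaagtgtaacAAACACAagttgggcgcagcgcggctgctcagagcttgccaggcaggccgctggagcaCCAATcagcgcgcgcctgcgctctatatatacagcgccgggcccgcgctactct
H2ac10: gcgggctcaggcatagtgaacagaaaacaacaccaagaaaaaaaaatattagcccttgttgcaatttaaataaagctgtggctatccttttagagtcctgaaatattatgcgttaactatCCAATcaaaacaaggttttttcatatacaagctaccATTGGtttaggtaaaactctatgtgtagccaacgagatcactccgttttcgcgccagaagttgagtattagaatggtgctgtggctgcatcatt
H2ac24: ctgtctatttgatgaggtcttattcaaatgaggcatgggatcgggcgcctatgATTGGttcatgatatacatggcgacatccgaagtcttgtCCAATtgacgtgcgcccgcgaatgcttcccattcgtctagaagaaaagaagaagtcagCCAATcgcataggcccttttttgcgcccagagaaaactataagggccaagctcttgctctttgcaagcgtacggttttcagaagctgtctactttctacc
H2bc3: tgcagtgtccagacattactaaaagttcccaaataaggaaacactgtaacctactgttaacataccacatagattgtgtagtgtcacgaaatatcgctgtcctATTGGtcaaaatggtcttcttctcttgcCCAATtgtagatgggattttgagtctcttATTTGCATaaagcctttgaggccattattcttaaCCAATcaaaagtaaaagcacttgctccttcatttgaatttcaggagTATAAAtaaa

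RefSeq gave such a window for 25 of the 30 genes, and all searches covered both strands. CCAAT stood in 24 of the 25 windows (96%), against 33.8% of 32851 promoter windows of the same length. TATAAA stood in 10 of 25 (40%), against 12.4% of all windows. The H1 box stood in 4 of 5 H1 windows and in 7 of all 25, against 6.25% of all windows. The octamer stood in 5 of 7 H2B and 3 of 9 H2A windows and in no H1, H3 or H4 window, against 1.6% of all windows. TGATGNAA, a core of composite sites of C/EBP and ATF factors, was in 0 of the 25 windows, against 3.45% of all windows. These are matches of letters and say nothing of binding. The windows of 2 divergent pairs overlap, H2ac1 with H2bc1 by 220 bases and H2ac12 with H2bc12 by 177 bases, so these pairs share matches.

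Atf4 was lower on every LF ATF4 KO array, with 7.73, 7.49 and 7.48 in KO cells against 8.67, 8.95 and 8.73 in WT cells (log2 difference -1.22, s.e. 0.10, adjusted p = 0.000497). Whether the probes of that row lie in the deleted exons was not examined. Array medians lay between 4.87 and 4.91, and arrays correlated at 0.997 to 0.998 within a genotype and 0.988 to 0.993 between them. All 10 leukocyte markers rose in KO cells, with a list mean of 13.2 to 13.8 on KO arrays and 10.5 to 10.9 on WT arrays. Of the 6 mesothelial markers 5 fell and 1 rose (list mean 6.59 to 7.18 on KO arrays, 9.77 to 10.3 on WT arrays), and 4 of 7 fibroblast markers fell (13.2 to 13.6 on KO arrays, 14.4 to 14.5 on WT arrays). Among fibroblast markers Col1a1 and Col1a2 fell, whereas Dcn and Vim differed by 0.18 and 0.21, under the fold threshold. Of 4 markers each, 1 endothelial and 1 epithelial marker rose, and Sftpc, the surfactant gene that defines alveolar type II cells, was between 3.66 and 3.77 on all arrays, below the median row. What part the cell types of the cultures had in the histone values was not tested.

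No histone gene passed the study's thresholds. In the limma test 0 of the 30 genes had both an adjusted p no higher than 0.05 and a change of over 1.5-fold, where 4.85% of all 65956 rows were called in either direction. The per-row test that the study's methods name for 2 groups, adjusted in the same way, also gave 0. At an unadjusted p under 0.05 in limma, 13 genes were higher in KO cells and 3 were lower. Of all rows 11.8% were higher and 12.9% lower, and of the 30098 genes 5583 were higher and 3721 lower. Leaving out genes below the median row in both genotypes, 12 of 26 histone genes were higher, against 5164 of 18508 genes in all. The differences were small and mostly on 1 side. The log2 difference, KO minus WT, was above 0 for 24 of the 30 genes. It was above 0 for 49.6% of all rows and for 57.1% of the genes with a row of their own. The histone median was 0.17, against 0.00 over all rows and 0.02 over the genes with a row of their own. The differences ran from -0.76 for H1f2 to 0.47 for H2ac10, and for 25 of 30 genes the 95% interval lay within a 1.5-fold change either way. The intervals of H1f2, H2ac10, H2ac14, H2ac15 and H2bc21 reached past it.

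**Figure D1:**
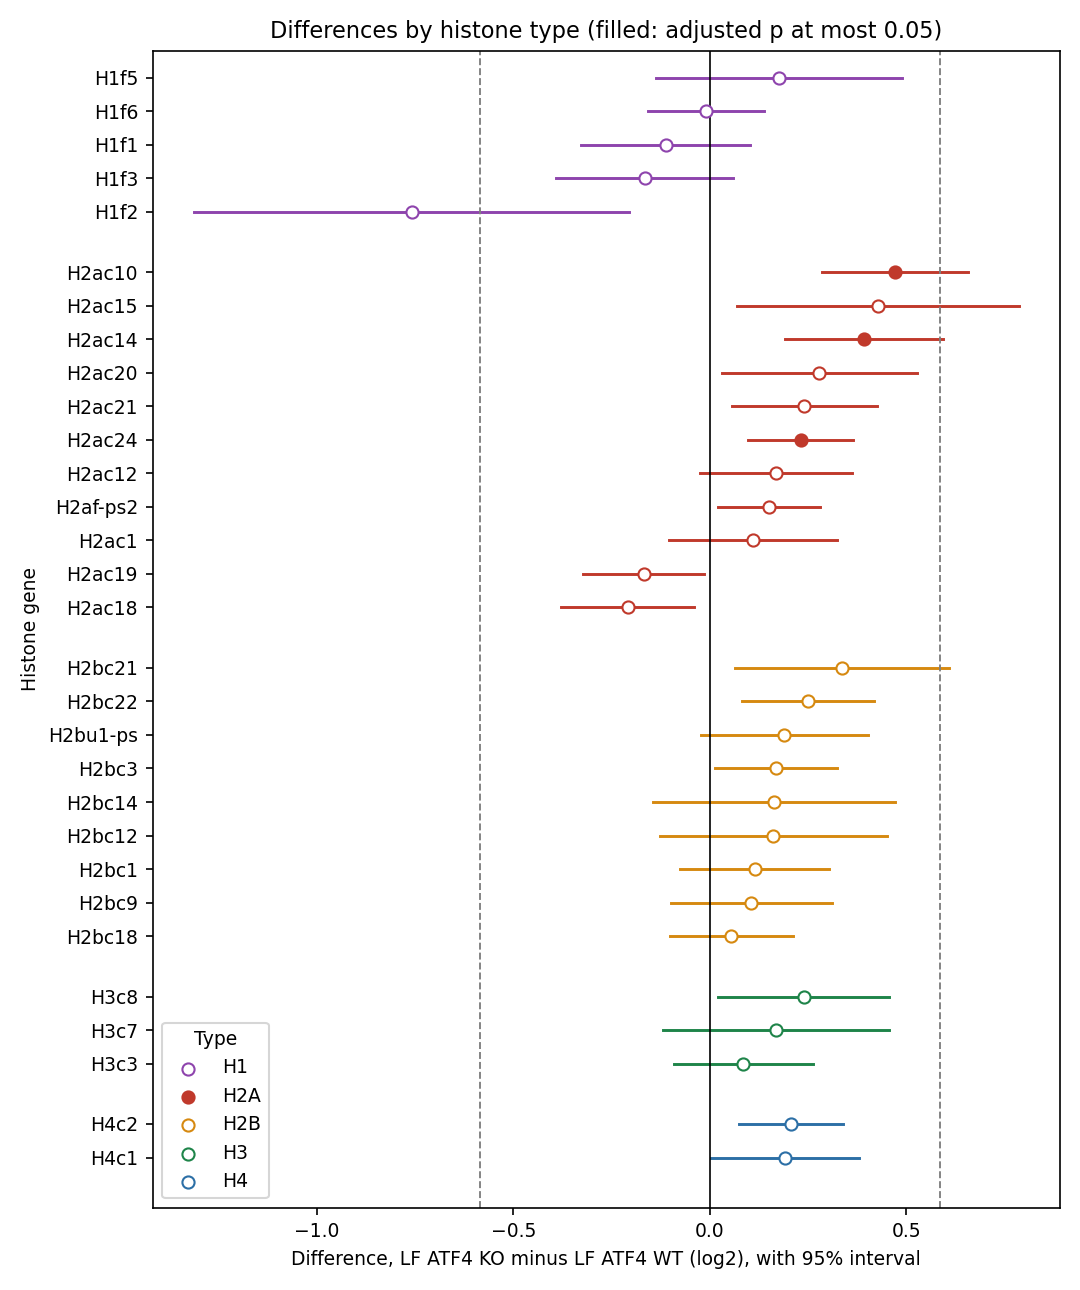
Log2 difference (x axis, LF ATF4 KO minus LF ATF4 WT) of each of the 30 histone genes (y axis, by type), with its 95% interval from limma, dashed lines at a 1.5-fold change and filled points where the adjusted p was at most 0.05. All H2B, H3 and H4 genes lie right of 0, 3 H2A genes are filled, and 6 genes lie left of 0, of which H1f2 is farthest at -0.76.

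Without the fold threshold, 3 genes passed the adjusted p, all 3 of type H2A and higher in KO cells. In that direction 6.41% of all rows passed, and 3315 of the 30098 genes with a row of their own. Leaving out dim genes, those below the median row in both genotypes, 3 of 26 histone genes passed, against 3234 of 18508 genes in all. The share of histone genes was thus no higher than the share of all genes. None passed in the lower direction, where 6.54% of all rows and 2183 of the 30098 genes did. There 3 genes were lower at an unadjusted p under 0.05. The arrays of both genotypes did not overlap for 11 histone genes that were higher in KO cells. That way 15.0% of all rows and 6807 of the 30098 genes separated. Without dim genes it was 10 of 26 histone genes, against 5655 of 18508 genes in all. For 3 genes the KO arrays were all below the WT arrays, again beside 15.0% of all rows and 4531 of the 30098 genes.

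**Figure D2:**
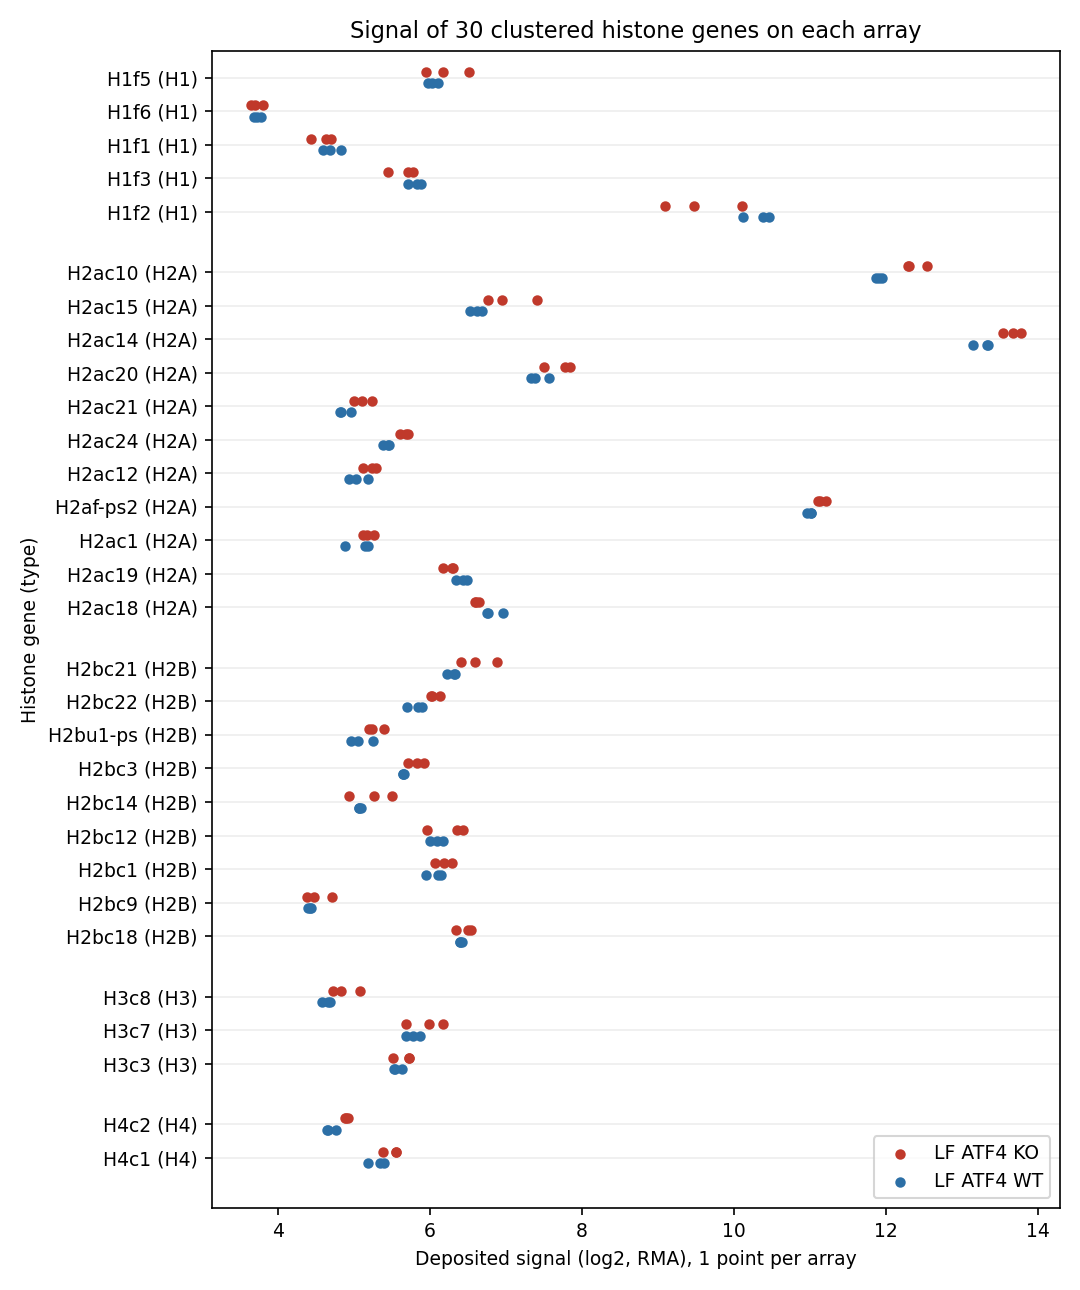
Deposited log2 signal (x axis) of each histone gene (y axis, by type) on the 3 LF ATF4 KO arrays (red, upper row of points) and the 3 LF ATF4 WT arrays (blue, lower row). Most KO points lie slightly right of the WT points of the same gene, and those of H1f2 lie to the left, where the nearest arrays are 10.11 in KO cells and 10.12 in WT cells.

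The linker histone H1 was the only type with a median below 0 (-0.11), and 1 of its 5 genes was above 0. The H1 median was closer to 0 without KO replicate 2 (-0.04) and without WT replicate 3 (-0.05). H1f2 (H1.2, a somatic subtype) had signals of 9.48, 9.10 and 10.11 in KO cells, against 10.38, 10.46 and 10.12 in WT cells. Every KO array was below every WT array, but KO replicate 3 was almost level with WT replicate 3, and the KO arrays were spread widely (SD 0.51 in KO cells, 0.18 in WT cells, n = 3 each). The difference was -0.76 (s.e. 0.24), 1.69-fold lower in KO cells, with an adjusted p of 0.0853. The value moved either way with single KO arrays. Without KO replicate 2 it was -0.53 with an adjusted p of 0.161, and without KO replicate 3 it was -1.03 with an adjusted p of 0.00831, which passed both thresholds. H1f3 (H1.3) had 5.77, 5.44 and 5.71 in KO cells against 5.83, 5.71 and 5.88 in WT cells (difference -0.17, s.e. 0.10, adjusted p = 0.362), with overlap of the groups. H1f5 (H1.5), the H1 gene above 0, had 6.51, 6.18 and 5.95 in KO cells against 5.98, 6.03 and 6.10 in WT cells (0.18, s.e. 0.13, adjusted p = 0.504). H1f1 and the testis gene H1f6 (H1t) were below the median row of 4.90 in both genotypes, and differed by -0.11 and -0.01.

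H2A, which pairs with H2B in the nucleosome core, had a median of 0.23, with 9 of 11 genes above 0. The order of the type medians changed with the arrays, since the H3 median was above that of H2A without KO replicate 2 or WT replicate 2. H2ac10 had 12.30, 12.29 and 12.54 in KO cells, against 11.94, 11.87 and 11.91 in WT cells. All KO arrays lay above all WT arrays, by 0.47 on average (s.e. 0.08, 1.39-fold, adjusted p = 0.00840). H2ac14, a pseudogene in RefSeq, had 13.67, 13.54 and 13.78 in KO cells, against 13.32, 13.14 and 13.34 in WT cells. Its groups were also apart, with a difference of 0.39 (s.e. 0.09, 1.31-fold, adjusted p = 0.0240). H2ac24 had 5.71, 5.60 and 5.68 in KO cells, against 5.45, 5.38 and 5.46 in WT cells (0.23, s.e. 0.06, 1.17-fold, adjusted p = 0.0379). These 3 are the genes that passed the adjusted p without the fold threshold, and this depended on the test and the arrays. With the per-row test of the study's methods, 0 histone genes passed, and the adjusted p was 0.0695 for H2ac10, 0.118 for H2ac14 and 0.0665 for H2ac24. H2ac10 passed in limma with any single array left out. H2ac14 passed without WT replicate 3 or KO replicate 2, and H2ac24 only without KO replicate 2. Without KO replicate 2, H2ac15, H2ac20 and H2bc21 passed as well, which made 6 genes higher in KO cells, and without KO replicate 3, H1f2 passed as lower.

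The remaining H2A genes did not pass the adjusted p. H2ac15 had a wide KO spread, with 6.95, 6.77 and 7.41 in KO cells against 6.62, 6.53 and 6.69 in WT cells (0.43, s.e. 0.15, adjusted p = 0.129). Of the 4 H2A genes in the Hist2 cluster, 2 had differences above 0 and 2 below. H2ac20 had 7.78, 7.50 and 7.84 in KO cells against 7.57, 7.39 and 7.33 in WT cells (0.28, adjusted p = 0.153), and H2ac21 averaged 5.11 ± 0.12 in KO cells and 4.87 ± 0.08 in WT cells (SD, n = 3 each; limma difference 0.24, adjusted p = 0.0999). H2ac18 had 6.61, 6.65 and 6.60 in KO cells against 6.97, 6.76 and 6.75 in WT cells (-0.21, adjusted p = 0.118). H2ac19, its near-identical copy, had 6.29, 6.17 and 6.31 in KO cells against 6.44, 6.34 and 6.49 in WT cells (-0.17, adjusted p = 0.164). With H1f2, these are the 3 genes whose KO arrays were all below the WT arrays. The direction for H2ac18 and H2ac19 depended on the row, since both rows that name this pair together were higher on every KO array, by 0.20 for the row of only this pair (adjusted p = 0.0850) and by 0.23 for the row that also names H2af-ps2 (adjusted p = 0.0544). H2af-ps2, H2ac12 and H2ac1 (TH2A, a testis histone in the adult) differed by 0.15, 0.17 and 0.11, with adjusted p-values of 0.141 to 0.547.

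**Figure D3:**
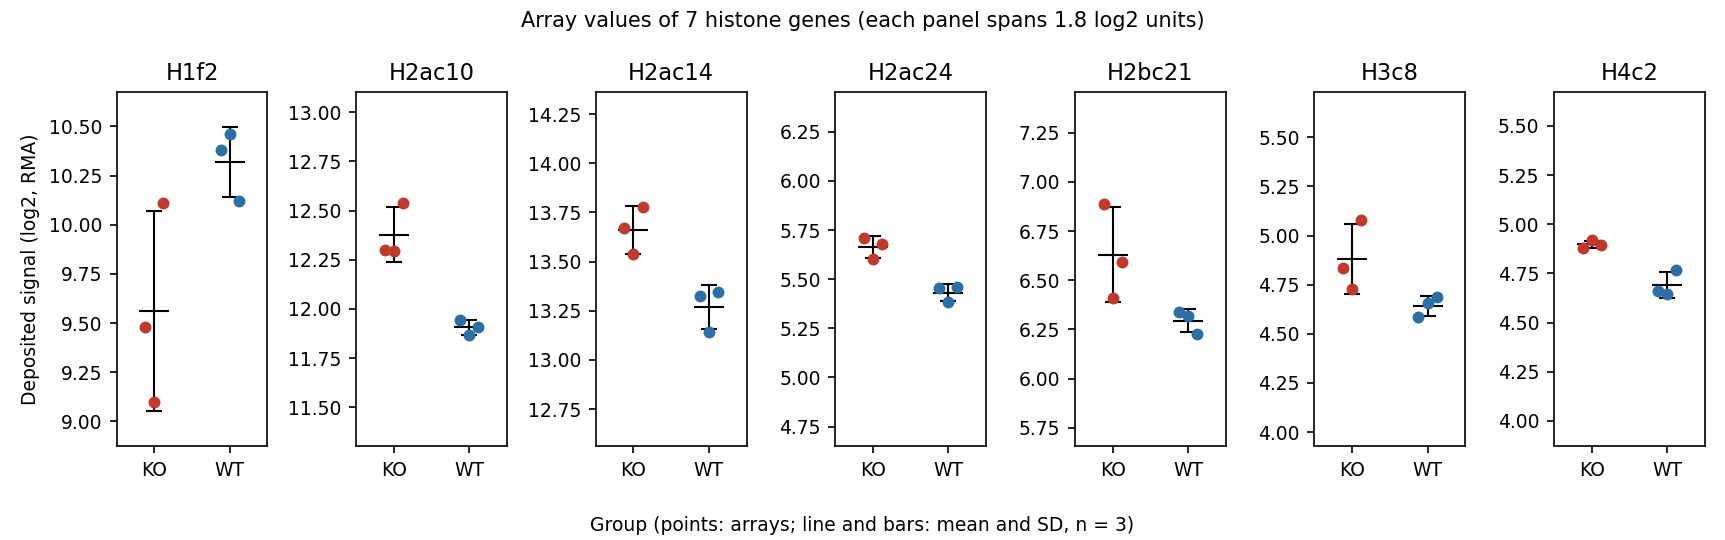
Deposited log2 signal (y axis, with the same span in each panel) of 7 histone genes on each array, with LF ATF4 KO left of LF ATF4 WT and the mean and SD over 3 arrays. H2ac10, H2ac14, H2ac24, H2bc21, H3c8 and H4c2 are higher on every KO array, and H1f2 is lower on every KO array with 1 KO array next to the WT arrays.

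All 9 H2B genes were above 0, with a median of 0.16 and a range of 0.05 to 0.34, and 0 passed the adjusted p in limma. At an unadjusted p under 0.05, 3 of the 9 were higher. H2bc21, an H2B variant gene of the Hist2 cluster known in mouse from olfactory neurons, had the largest H2B difference. It had 6.89, 6.41 and 6.59 in KO cells, against 6.34, 6.32 and 6.23 in WT cells (0.34, s.e. 0.12, adjusted p = 0.118), with the groups apart. Without KO replicate 1, its highest array, the difference was 0.21. The smallest adjusted p of the type, 0.0649, was that of H2bc22, with 6.03, 6.02 and 6.14 in KO cells against 5.84, 5.70 and 5.90 in WT cells (0.25, s.e. 0.07). H2bc3 also separated, with 5.82, 5.71 and 5.92 in KO cells against 5.65, 5.66 and 5.64 in WT cells (0.17, adjusted p = 0.166). The other 6 overlapped. H2bc14, H2bc12, H2bc18 and the dim gene H2bc9 had KO arrays on both sides of the WT values. For each of them KO replicate 2 was the lowest of all 6 arrays. H2bc12 and H2ac12, which share a divergent promoter, differed by 0.16 and 0.17, and the testis pair H2bc1 (TH2B) and H2ac1 both differed by 0.11.

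The 3 H3 genes were above 0, with a median of 0.17, and 0 passed the adjusted p in limma. The H3 median was 0.055 without KO replicate 3 and 0.30 without KO replicate 2. H3c7 had 5.98, 5.68 and 6.17 in KO cells against 5.78, 5.86 and 5.69 in WT cells (0.17, s.e. 0.12, adjusted p = 0.481). Its KO arrays lay on both sides of the WT arrays. H3c8 had 4.84, 4.73 and 5.08 in KO cells against 4.58, 4.66 and 4.69 in WT cells (0.24, s.e. 0.09, adjusted p = 0.162), with the groups apart, and was the H3 gene with an unadjusted p under 0.05. It was below the median row in both genotypes, and its difference was 0.14 without KO replicate 3. H3c3 differed by 0.09 (adjusted p = 0.579).

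Both H4 genes were above 0 and had an unadjusted p under 0.05, and 0 passed the adjusted p in limma. H4c1 had 5.55, 5.38 and 5.56 in KO cells against 5.39, 5.18 and 5.34 in WT cells (0.19, s.e. 0.08, adjusted p = 0.194), with KO replicate 2 among the WT values. H4c2 had 4.88, 4.92 and 4.89 in KO cells against 4.66, 4.65 and 4.77 in WT cells (0.21, s.e. 0.06, adjusted p = 0.0569), with the groups apart. The dimmer of the H4c2 rows went the other way, with a difference of -0.12 (adjusted p = 0.237), so the direction for this gene depended on the row.

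A further 39 rows named several genes, at least 1 of them a clustered histone gene, and were not counted as members. Of these, 0 were called in limma, 33 differed by more than 0, and 13 had an unadjusted p under 0.05, all higher in KO cells, where 11.8% of all rows were. At the adjusted p alone 7 were higher, 5 H4 rows and 2 H2A rows, where 6.41% of all rows were. Only 2 of the 39 rows were dim. Of the 18508 genes with a row of their own that were not dim, 5164 were higher at the unadjusted p and 3234 at the adjusted p. The H4 rows all name the same 13 genes, H4c1 and H4c2 included, and differed by -0.19 to 0.49 among themselves. The row that names H4c4 first had 9.91, 9.90 and 9.82 in KO cells against 9.44, 9.34 and 9.39 in WT cells (0.49, s.e. 0.06, adjusted p = 0.00191). The row that names H4c9 first had 8.71, 8.01 and 8.82 in KO cells against 8.71, 8.55 and 8.84 in WT cells (-0.19, s.e. 0.20). Rows assigned to the same 13 genes thus had differences of both signs. The 10 H2A rows all differed by more than 0, with a median of 0.21, and the row that names H2ac23 first had 6.41, 6.45 and 6.46 in KO cells against 6.11, 5.94 and 6.11 in WT cells (0.39, adjusted p = 0.00830). The 9 H2B rows had a median of 0.03 and the 7 H3 rows one of 0.16, with 0 past the adjusted p in limma and 1 of each under an unadjusted p of 0.05.

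The 3 KO cultures were not alike. Relative to the WT mean of each gene, the median histone gene stood at 0.18, 0.07 and 0.23 on KO arrays 1, 2 and 3, and at 0.01, -0.03 and 0.02 on the WT arrays. KO replicate 2 was lowest of the KO arrays for every type median. The median over 34 S phase genes, which include the replicative helicase and the DNA polymerases, moved with it, at 0.27, 0.01 and 0.38 on the KO arrays and 0.04, -0.02 and -0.03 on the WT arrays. For 23 mitosis genes it was 0.17, -0.69 and 0.38 on the KO arrays and 0.17, -0.05 and -0.11 on the WT arrays. KO replicate 2 thus had the lowest signal of all 6 arrays for mitosis genes, and the part of this in the histone values was not tested. Without it the median over the histone genes was 0.22, and 0 were called.

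**Figure D4:**
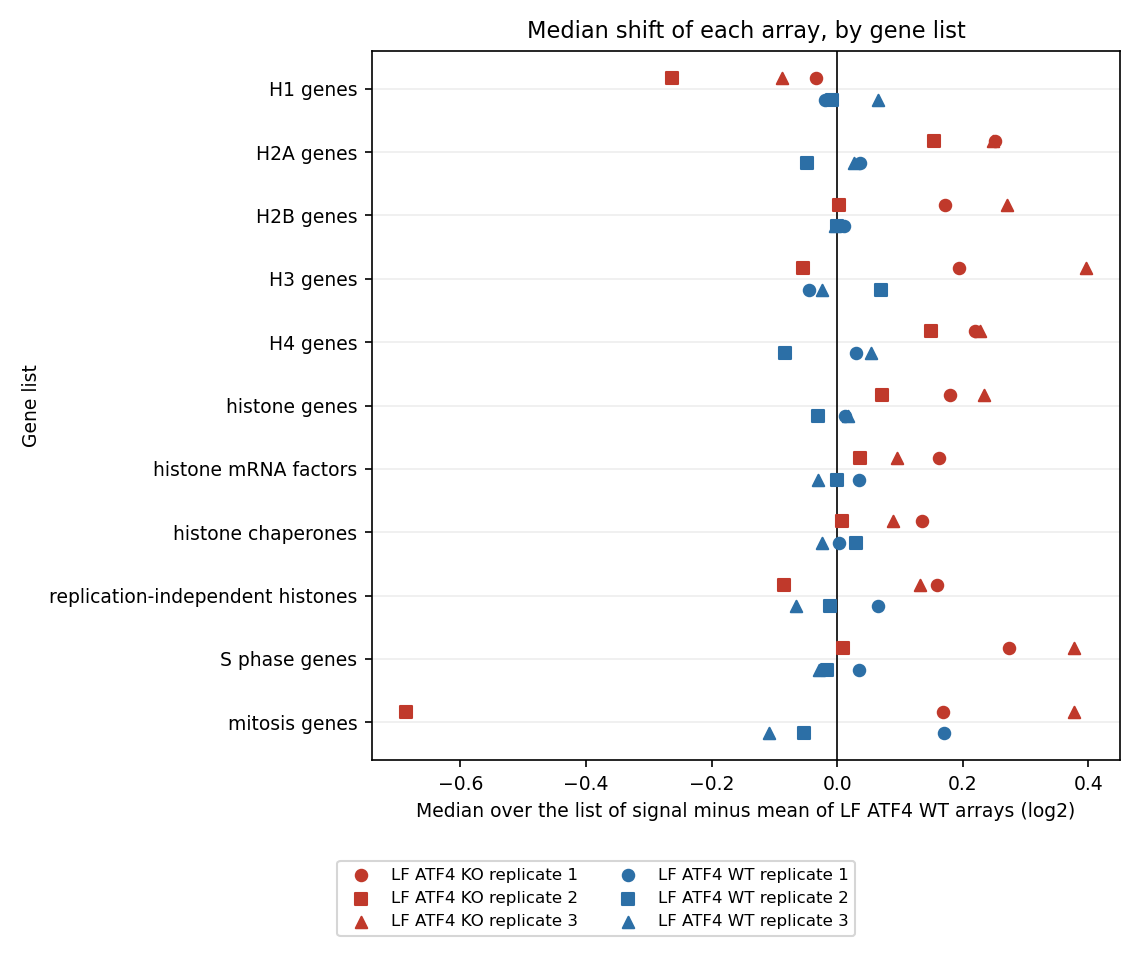
Median over each gene list (y axis) of the log2 signal minus the mean of the 3 LF ATF4 WT arrays (x axis), 1 point per array, with LF ATF4 KO arrays in red above LF ATF4 WT arrays in blue. On KO replicate 2 (red square) the S phase genes are at 0.01 and the mitosis genes at -0.69, and the histone genes are at 0.07.

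Other genes of histone supply and of the cell cycle were counted from lists by role. Of 16 factors of histone mRNA transcription, processing and decay 14 had a row of their own. Of these, 0 were called in limma, with a median of 0.13, where 4.85% of all rows were called. At an unadjusted p under 0.05, 4 were higher in KO cells and 0 were lower, where 11.8% and 12.9% of all rows were. Slbp, the stem-loop binding protein, had 7.34, 7.19 and 7.27 in KO cells against 7.17, 7.17 and 7.13 in WT cells (0.11, s.e. 0.06, adjusted p = 0.313). Npat, the activator of the clusters, had 10.01, 10.28 and 10.33 in KO cells against 10.41, 10.44 and 10.38 in WT cells (-0.20, s.e. 0.09, adjusted p = 0.214). The 2 factors with the smallest p were Ncbp1, a subunit of the nuclear cap-binding complex (0.32, adjusted p = 0.0344), and Cpsf3, the nuclease that cuts histone pre-mRNA (0.20, adjusted p = 0.0482), both under the fold threshold. Only these 2 of the 14 passed the adjusted p alone, both higher in KO cells, where 6.41% of all rows were.

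Of 16 histone chaperones measured 1 was called higher and 0 lower, beside 4.85% of all rows called in either direction. Asf1b, which hands H3 and H4 to the replication fork, had 7.83, 7.45 and 8.23 in KO cells against 7.17, 6.95 and 7.16 in WT cells (0.74, s.e. 0.18, adjusted p = 0.0366). With any single array other than KO replicate 2 left out, 0 chaperones were called. At the adjusted p alone in limma, 3 chaperones were higher and 2 were lower, where 6.41% and 6.54% of all rows were. Beside Asf1b, the higher ones were Npm1 (0.39, adjusted p = 0.00395) and Nap1l4 (0.29, adjusted p = 0.0110), both under the fold threshold. The 2 lower ones were Atrx (-0.50, adjusted p = 0.00155) and Ubn1 (-0.29, adjusted p = 0.0301), both under the fold threshold. Of 8 histone genes outside the clusters that are used independently of replication, 1 was called lower and 0 higher. Of all rows 4.85% were called in either direction. Macroh2a2, a variant H2A associated with silent chromatin, had 8.95, 9.55 and 9.20 in KO cells against 10.20, 10.10 and 10.02 in WT cells (-0.87, s.e. 0.14, adjusted p = 0.00772). At the adjusted p alone in limma, 2 of the 8 were higher and 1 was lower, where 6.41% and 6.54% of all rows were. The 2 higher ones were H2ax (0.45, adjusted p = 0.0351) and Macroh2a1 (0.30, adjusted p = 0.0283), both under the fold threshold.

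Of 34 S phase genes measured 1 rose and 1 fell, where 4.85% of all rows were called in either direction. The difference was above 0 for 32 of them (median 0.24), beside 57.1% of genes with a row of their own. At an unadjusted p under 0.05 in limma, 15 were higher and 1 was lower, where 11.8% and 12.9% of all rows were. At the adjusted p alone 4 were higher and 1 was lower, where 6.41% and 6.54% of all rows were. The arrays of both genotypes did not overlap for 14 that were higher and 1 that was lower, beside 15.0% of all rows each way. Pcna, the sliding clamp of DNA polymerases, had 10.79, 10.42 and 10.95 in KO cells against 10.02, 9.83 and 9.71 in WT cells (0.86, s.e. 0.14, adjusted p = 0.00800). Rrm1, the large subunit of ribonucleotide reductase, had 11.73, 11.11 and 11.85 in KO cells against 12.36, 12.44 and 12.53 in WT cells (-0.88, s.e. 0.18, adjusted p = 0.0190), and was not called without WT replicate 2 or WT replicate 3. Without KO replicate 2, 10 S phase genes were called higher and 1 lower, with a median of 0.35. In that fit 1610 of all 65956 rows were called higher and 1765 lower. Of 23 mitosis genes 0 were called in limma, and 0 had an unadjusted p under 0.05. The 2 with the smallest p were Kif20a, a kinesin of cytokinesis, with 10.17, 8.95 and 10.47 in KO cells against 10.77, 10.47 and 10.54 in WT cells (-0.73, adjusted p = 0.266), and Cdc20, an activator of the anaphase-promoting complex (-0.52, adjusted p = 0.317). The median over mitosis genes was -0.04 with all arrays and 0.28 without KO replicate 2. In that fit 2 were called higher, beside 1610 of all 65956 rows.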

How the data were processed

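Lung fibroblasts were measured on Clariom D mouse arrays, 1 per culture, with 3 arrays for each genotype. The values are the authors' deposited log2 signals, computed by RMA in the Transcriptome Analysis Console at its default settings. RMA gives all arrays 1 distribution of values, which hides any genotype difference in overall RNA content. Values reached 18.9, beyond the range of plain scanner intensity, so folds hold on the deposited scale only. Signals of different rows were ranked only to choose a row per gene and genes to name, and to mark rows below the median row as dim, and give no order of RNA amounts. The number of arrays limits the precision. Which annotation release named the rows is not given in the sources used here.

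Of 65956 rows 30638 named 1 gene, 2176 several and 33142 none. Histone symbols were matched through the synonyms of the RefSeq table of GRCm38.p6. The limma package (3.58.1, R 4.3.3) compared the genotypes in every row (lmFit, then eBayes), and p-values were adjusted by Benjamini-Hochberg over the whole table. Calls used the thresholds of the study's methods, 0.05 for the adjusted p and 1.5 for the fold. Standard errors come from limma, and each SD is over 3 arrays. The procedure was tested on simulated data. Alternatives covered the test, the variance trend, the fold threshold, dim rows, the row per gene, array centring, the replicate number as a block, and each array left out.

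The members and lists were chosen with earlier results of these data known. Genes named were, for each histone type, called members, the one with the highest signal and the uncalled one with the largest difference. For each companion list they were up to 3 called genes, or the 2 of smallest p where none was called, beside Slbp, Npat and Atf4. H2ac24, Atrx, Ubn1, Npm1, Nap1l4, H2ax, Macroh2a1, the rows naming several genes and all other histone genes described were chosen after their values were seen. Marker genes were Col1a1, Col1a2, Pdgfrb, Thy1, Dcn, Lum and Vim for fibroblasts, Ptprc, Adgre1, Itgam, Csf1r, Cd68, Lyz2, Fcgr1, Mrc1, Cd14 and Tyrobp for leukocytes, Msln, Wt1, Upk3b, Lrrn4, Krt19 and Upk1b for mesothelium, Pecam1, Cdh5, Kdr and Tek for endothelium, and Epcam, Cdh1, Sftpc and Scgb1a1 for epithelium.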

Additional observations from a re-analysis of the deposited data

How the results depend on the processing

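With the adjusted p alone, 3 histone genes were higher in LF ATF4 KO cells in place of 0. None of these passed with Student's t-test per row. The H4 median was 0.20 with the brightest row of H4c2, 0.12 with the mean of its rows and 0.036 with the dimmest row, which turned H4c2 itself to -0.12. With 1 array left out, genes called lower numbered 0 to 1 and genes called higher 0. The gene called lower was H1f2, without KO replicate 3. Over the same fits the medians ran from -0.17 to -0.04 for H1, 0.18 to 0.24 for H2A, 0.12 to 0.23 for H2B, 0.055 to 0.30 for H3 and 0.16 to 0.23 for H4, so the order of the types other than H1 was not fixed. Student's t-test per row, a variance trend and a test against the 1.5-fold change called 0 histone genes in either direction. A filter on dim rows and centring of arrays also called 0. With centring, H4c2 also passed the adjusted p alone (0.0395). Including rows that share several genes of 1 type, or leaving out pseudogenes, was added after the data had been seen and also gave 0 calls.

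No sign of pairing by replicate number was seen, as deviations of same-numbered arrays from their genotype means correlated at -0.04, -0.01 and -0.22. With 3 arrays per genotype, such correlations cannot exclude a pairing. With the replicate number as a block, which cannot change a difference in this balanced design, 0 histone genes were called, and 2 rather than 3 passed the adjusted p alone, as H2ac24 had 0.0848. With 3 arrays per genotype, a dim row, or one that shares sequence with other copies, gives no sure reading of a single gene.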
